A study of Caenorhabditis elegans with 27 samples.

Results

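The genes whose symbols start with col- form the large cuticle collagen family of the nematode Caenorhabditis elegans. The count table held 159 such genes among 46738, and they were taken by symbol, without use of any measured value. Of these, 142 passed the filter on low counts and were tested among 16435 genes. The 17 others had 5 to 143 counts summed over the 27 libraries, with a median of 57, and are not described further. Counts of members below refer to the 142 tested genes. A scarce member could pass the filter through a single group where it was high, so counts over the tested members describe them and are no support for a change of the family.

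The worm is enclosed by the cuticle, a layered coat of cross-linked collagens that the underlying hypodermis secretes. It is shed and rebuilt at each larval molt, and every new cuticle is made from a set of collagens that are transcribed in waves during the molting cycle. Some members are known for particular stages: col-19 is the standard reporter of the adult cuticle, col-17 of larval cuticles, and col-2 of the dauer larva, a resting stage. The symbol does not guarantee a place in the cuticle, since col-99 encodes a transmembrane collagen.

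The study asked which responses to mitochondrial stress depend on the transcriptional coactivator CBP-1. N2 worms carrying an hsp-6::GFP reporter were fed E. coli HT115 with RNAi clones from the egg on, kept at 20 °C and collected 2 days later, at the L4 larval or young adult stage. All groups were wild-type apart from that reporter. Poly(A) RNA of whole animals was sequenced in 3 libraries for each of 9 groups. The groups fed without a mixture of targets received the empty vector, the cbp-1 clone or the atfs-1 clone, and the labels give no share for those clones. The cco-1 group received 50% cco-1 and 50% empty vector, and the mrps-5 group 50% mrps-5 and 50% empty vector. Each mitochondrial clone was also given at 50% with 25% cbp-1 and 25% empty vector, or with 50% atfs-1. cco-1 encodes a subunit of cytochrome c oxidase, mrps-5 a mitochondrial ribosomal protein, cbp-1 the nematode counterpart of mammalian CBP/p300, a histone acetyltransferase, and atfs-1 a transcription factor of the mitochondrial unfolded protein response. Nothing in the labels ties replicates to separate cultures, so the p-values measure how far these libraries spread, and that spread can be technical.

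Each library held 20672073 to 30938572 gene counts. The cbp-1 transcript lay at 207 to 211 CPM (gene counts scaled to library size by the trimmed mean of M-values, TMM) with the cbp-1 clone and at 257 to 277 CPM with the empty vector. In the mixtures with cbp-1 it lay at 274 to 277 CPM beside cco-1 and 266 to 284 CPM beside mrps-5. These levels were below the 317 to 334 CPM with cco-1 and 315 to 327 CPM with mrps-5, but not below the empty vector. cco-1 lay at 292 to 308 CPM with the empty vector and 167 to 171 CPM in the cco-1 group, but it was also at 208 to 223 CPM in the mrps-5 group, 218 to 226 CPM with cbp-1 and 191 to 309 CPM in the group labelled atfs-1. mrps-5 lay at 101 to 108 CPM with the empty vector and 79.6 to 86.5 CPM in the mrps-5 group. Both mitochondrial targets were lower again with cbp-1 added. cco-1 was at 105 to 125 CPM in the mixture of cco-1 and cbp-1, and mrps-5 at 65.7 to 70.1 CPM in that of mrps-5 and cbp-1. atfs-1 was not lower in the group labelled atfs-1, at 85.9 to 93.5 CPM against 77 to 78.9 CPM, nor in the mixtures labelled with it. Worm transcripts and RNA of the fed clones are not separated in these counts. The groups are therefore named by their labels below. The libraries also fell into 2 sets that the labels do not give, read from 425 genes outside the family that separate the first library labelled atfs-1 from its replicates. The empty vector, cbp-1 and first atfs-1 libraries scored 0.3433 to 0.4531 along these genes and the 20 others -0.2269 to -0.07796. The comparisons of cco-1, mrps-5 and atfs-1 with the empty vector cross these sets. The comparison of cbp-1 with the empty vector, of each mixture with its own mitochondrial clone and of mrps-5 with cco-1 each lie within a set.

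In the empty vector libraries the 159 members together took 3.63% ± 0.0933 (SD, n = 3) of the gene counts. This share was 2.7% ± 0.0662 (n = 3) with cbp-1, 2.97% ± 0.0366 (n = 3) with cco-1 and 3.38% ± 0.0321 (n = 3) with mrps-5. With cbp-1 added it was 2.26% ± 0.057 (n = 3) beside cco-1 and 2.53% ± 0.222 (n = 3) beside mrps-5. In each of these 3 pairs the groups did not overlap: the lowest share without cbp-1 was 3.56%, 2.93% and 3.35%, and the highest with it 2.77%, 2.33% and 2.71%. The mixtures labelled with atfs-1 were also lower than their mitochondrial clone without overlap, at 2.67% to 2.76% beside cco-1 and 2.88% to 3.14% beside mrps-5. The group labelled atfs-1 alone, at 3.19% to 3.8%, overlapped the empty vector.

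A few members carried most of this RNA. For description, tested members were split by their mean over all 27 libraries into 28 abundant genes of at least 200 CPM, 58 intermediate genes of 10 to 200 CPM and 56 scarce genes below 10 CPM. These bounds were chosen after the values were seen. The least abundant of the first class had 214 CPM and the next member 171 CPM, and the means of all tested members ran from 0.127 to 2480 CPM. The abundant class took 86% to 93.5% of the member counts in every library. Per kilobase of exon, the highest level with the empty vector was that of col-140, at 2969 ± 139 CPM per kilobase (SD, n = 3). It was followed by col-181 (2612 ± 81), col-124 (2232 ± 66.7), col-106 (2213 ± 74.4), col-20 (2207 ± 50.5), col-122 (1996 ± 66.1), col-8 (1945 ± 48.8), col-178 (1854 ± 54.5), col-119 (1790 ± 21.7) and col-80 (1653 ± 66.9), all in the same unit. The levels of col-124, col-106 and col-20 lay within their spread of each other, as did those of col-122 and col-8.

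Reads that aligned to several places were not counted, which matters in a family with close copies such as col-12 and col-13. Such reads were 14.7% to 14.9% of all reads with the empty vector and 7.93% to 7.98% with cbp-1. In addition, 51 tested members overlap another protein-coding gene, and the sources used here do not give the strand setting of the counting. Among the members named here, col-8, col-19, col-39, col-79, col-80, col-90, col-92, col-93, col-94, col-99, col-101, col-103, col-110, col-111, col-113, col-119, col-122, col-124, col-142, col-143, col-149, col-158 and col-179 overlap a gene on the opposite strand, so reads of the partners may be mixed. col-159 and col-160 overlap each other on the same strand. col-66, col-136 and col-182 are pseudogenes in the annotation.

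**Figure D1:**
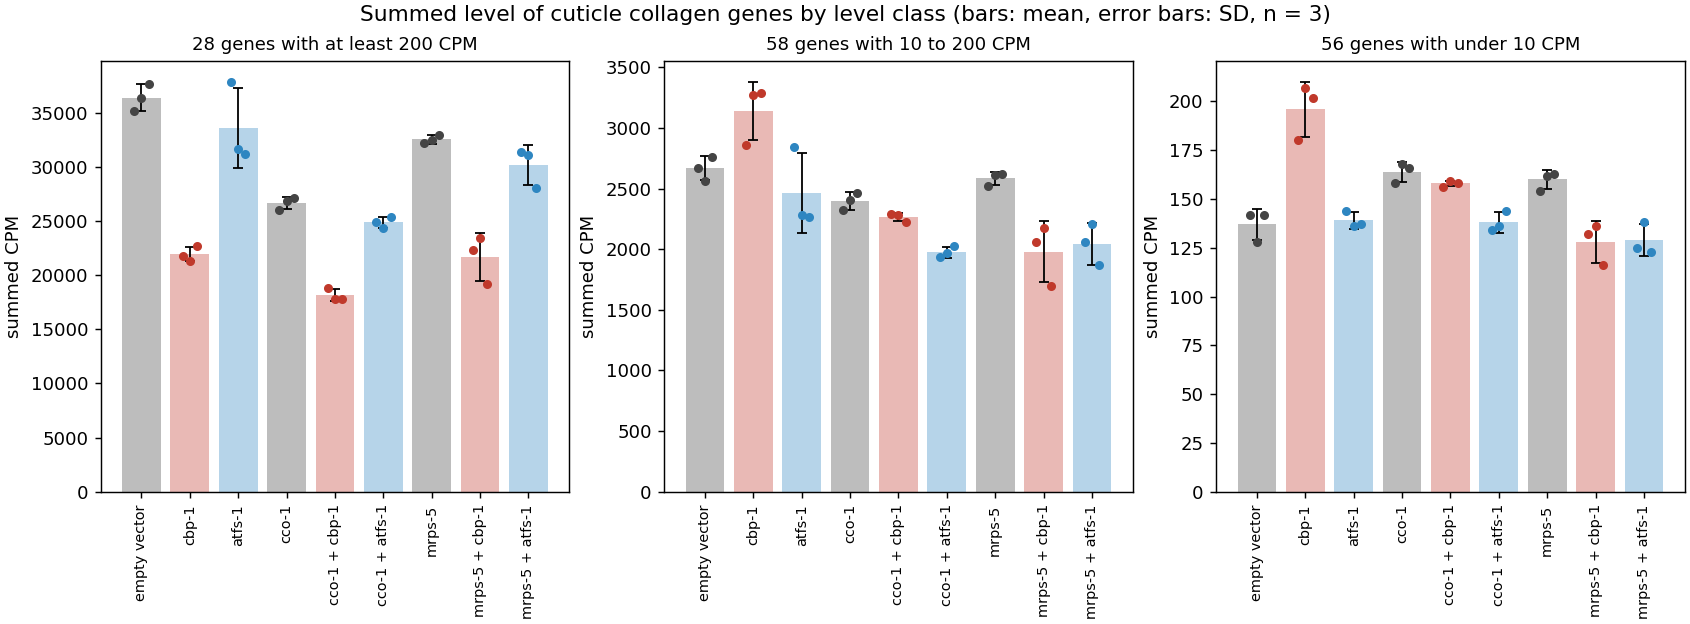
Summed TMM-scaled CPM of the abundant (28 genes), intermediate (58 genes) and scarce (56 genes) cuticle collagens in each of the 9 RNAi groups. Points are libraries, bars the mean and error bars the SD of 3 libraries. The abundant class was lower in each group with cbp-1 than in its counterpart without it, whereas the intermediate and scarce classes were higher with cbp-1 alone.

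With the cbp-1 clone alone, abundant cuticle collagens fell and many intermediate and scarce members rose. The 28 abundant genes summed to 35176, 36386 and 37730 CPM in the empty vector libraries and to 21814, 21358 and 22672 CPM in the cbp-1 libraries. The intermediate class summed to 2669, 2565 and 2764 CPM against 2859, 3274 and 3285 CPM, and the scarce class to 142, 128 and 142 CPM against 180, 207 and 202 CPM. None of these ranges overlapped. By edgeR's quasi-likelihood test at an adjusted p below 0.05, 57 members were higher and 54 lower of 142, where 58.7% of all tested genes were called, 30.2% higher and 28.5% lower. The median log2 change over the 142 members was 0.09, near the 0.02 of all genes, because the classes moved apart. Of the abundant members 0 were higher and 24 lower, with a median of -0.87, where among all genes of at least 200 CPM 13.5% were higher and 53.4% lower. Of the intermediate members 32 were higher and 19 lower, with a median of 0.51, against 27.4% and 32.6% of all genes at this level. Of the scarce members 25 were higher and 11 lower, also with a median of 0.51, against 34.6% and 22% of all genes below 10 CPM. The abundant members that were not called were col-8, col-42, col-98 and col-103, with log2 changes of -0.08, 0.00, -0.09 and -0.12.

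The abundant members that fell included those at the top of the family. col-181 (WBcel235 X:12104930-12106102) had 2813, 2944 and 2987 CPM with the empty vector and 1386, 1363 and 1451 CPM with cbp-1. The groups lay far apart, and the log2 change was -1.06 ± 0.05 (SE; adjusted p = 1.08e-22). col-101 (IV:325435-327020) had 874, 906 and 900 CPM against 178, 162 and 173 CPM, a log2 change of -2.39 ± 0.05 (adjusted p = 1.56e-34). All 3 cbp-1 libraries were thus low, and no other abundant member fell as far. The deepest fall among members with a mean of at least 5 CPM was in col-135 (IV:15129655-15131797), an intermediate gene, from 54.2, 48.3 and 48 CPM to 1.61, 2.11 and 1.87 CPM, a log2 change of -4.76 ± 0.15 (adjusted p = 5.42e-18). The next falls were in col-95 (-1.52 ± 0.12), col-94 (-1.47 ± 0.09) and col-93 (-1.46 ± 0.10).

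The members that rose most were intermediate or scarce genes. col-149 (V:10291701-10292869) had 39.2, 41.4 and 42.8 CPM with the empty vector and 166, 170 and 169 CPM with cbp-1, with no overlap and a log2 change of 2.03 ± 0.08 (adjusted p = 8.47e-17). col-166 (X:6280016-6280921) had 26.7, 23 and 28.8 CPM against 111, 119 and 123 CPM, a log2 change of 2.16 ± 0.10 (adjusted p = 3.83e-14). col-90 rose from 7.28, 6.46 and 6.6 CPM to 28.5, 36.2 and 31.9 CPM, a log2 change of 2.24 ± 0.11. Rises of 1.97 ± 0.10 in col-113 and 1.75 ± 0.08 in col-170 completed the 5 largest among members with a mean of at least 5 CPM. Below the level set for naming, col-158 rose by 2.98 ± 0.15, from 1.58, 1.44 and 1.37 CPM to 11.1, 12 and 11.8 CPM, and was chosen after its values were seen.

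**Figure D2:**
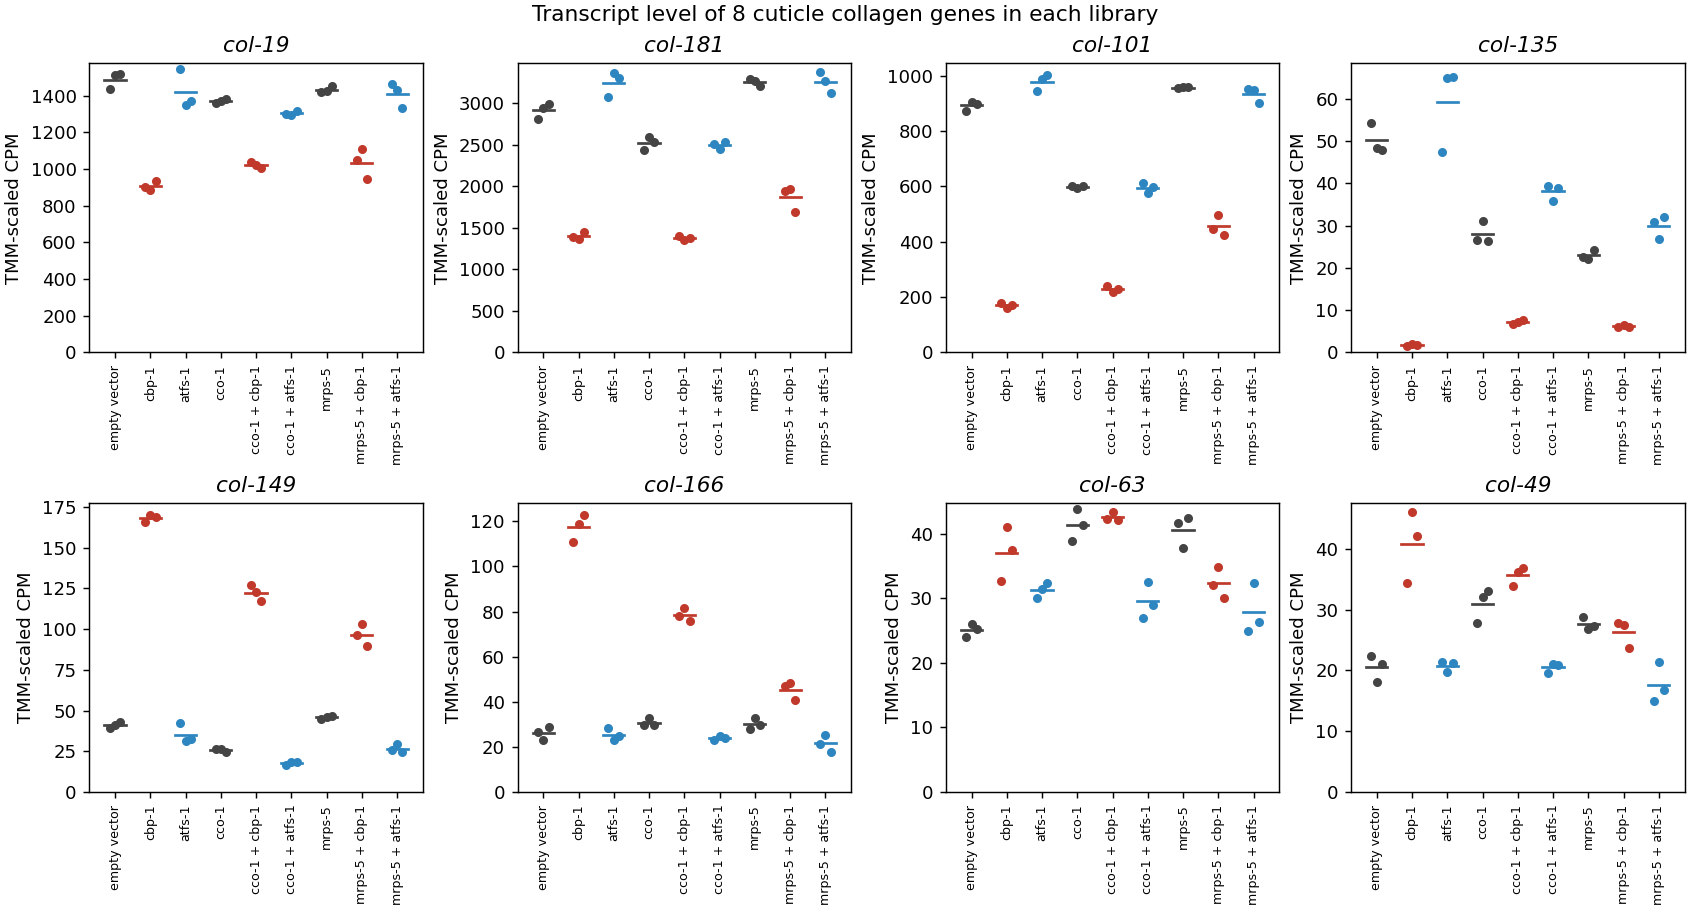
TMM-scaled CPM of 8 cuticle collagen genes in each of the 27 libraries, by RNAi group. Points are libraries and lines the group means; groups with cbp-1 are red, groups labelled atfs-1 blue and the others dark grey. col-19, col-181, col-101 and col-135 were lower and col-149 and col-166 higher in all 3 groups with cbp-1 than in their counterparts, and col-49 and col-63 were lower in the mixtures labelled with atfs-1 than in the mitochondrial clones alone.

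Members of several short genomic clusters changed in the same direction, but agreement over all clusters was not counted. Of the 159 members, 50 lie in 21 clusters with neighbours within 10000 bases of each other in WBcel235, and the largest holds 5 genes. In that cluster, from col-167 to col-171 on chromosome X, the 4 tested genes rose with cbp-1 by 0.89 to 1.75 on the log2 scale. On chromosome V, col-144, col-145 and col-10 lie side by side and rose by 1.66, 1.39 and 1.14, while col-141, col-142 and col-143 on the same chromosome fell, with log2 changes of -0.88, -1.04 and -1.21. Close neighbours did not always move alike. col-39 and col-80 on chromosome II fell, with changes of -0.53 and -1.42, next to col-79, which was not called (0.11). col-13 rose by 0.68 beside col-12, which was not called (-0.18). Neighbouring genes are not independent of each other.

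Worm RNA was extracted in bulk, so fewer hypodermal cells and less RNA per cell cannot be told apart, nor can a change in the mix of L4 larvae and young adults. Levels of 9 hypodermal genes summed to 305 to 313 CPM with the empty vector and 282 to 283 CPM with cbp-1, and 2 were higher and 2 lower. The 9 include the cuticle collagen genes dpy-7, which was not called, and rol-6, which was among those higher. This sum is therefore not separate from cuticle collagens. The 6 vitellogenin genes, which encode the yolk proteins made by the adult intestine, all fell with cbp-1, from a sum of 79205 to 82262 CPM to 16822 to 18333 CPM. Of 13 oocyte and eggshell genes 1 was higher and 7 lower, and of 42 genes of the sperm families msp and ssp 22 were higher and 1 lower. Beside these counts and those of the hypodermal genes, 30.2% of all genes were higher and 28.5% lower. The part of these shifts in the collagen result was not tested.

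Adding 25% cbp-1 to cco-1 lowered the abundant collagens again. The 28 abundant genes summed to 26088, 26899 and 27163 CPM with cco-1 and 18813, 17845 and 17821 CPM with cco-1 and cbp-1. The intermediate class summed to 2320, 2408 and 2461 CPM against 2292, 2278 and 2224 CPM. Of the 142 members 31 were higher and 59 lower, where 47.2% of all genes were called, 21.9% higher and 25.3% lower, and the members' median was -0.19. The abundant class had 1 higher and 22 lower with a median of -0.68, where 46.6% of all genes of at least 200 CPM were lower. The intermediate class had 17 higher and 21 lower with a median of -0.08, against 26.9% and 27.4% of all genes at this level. The scarce class had 13 and 16 with a median of -0.07, against 18.8% and 21%. All 6 vitellogenins and 29 of the 42 sperm genes fell as well, with vitellogenin sums of 15873 to 16242 CPM against 28113 to 30921 CPM, and their part was not tested.

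Among members with a mean of at least 5 CPM, genes with the largest changes recurred in this pair. col-149 had 26.7, 26.7 and 24.6 CPM with cco-1 and 127, 123 and 117 CPM with cbp-1 added, a log2 change of 2.23 ± 0.08 (adjusted p = 5.32e-17). col-166 rose by 1.35 ± 0.10, col-90 by 1.19 ± 0.10, col-113 by 0.90 ± 0.10 and col-150, the neighbour of col-149, by 0.72 ± 0.07. col-101 had 603, 594 and 600 CPM against 239, 218 and 228 CPM, a log2 change of -1.39 ± 0.04 (adjusted p = 8.22e-27), and col-135 had 26.6, 31 and 26.3 CPM against 6.71, 7.13 and 7.63 CPM, a change of -1.97 ± 0.12. For each of these genes the groups were apart. The other large falls were in col-120 (-1.31 ± 0.12), col-88 (-1.23 ± 0.17) and col-159 (-1.20 ± 0.16).

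Adding 25% cbp-1 to mrps-5 lowered collagens of every class. The abundant genes summed to 32203, 32558 and 32996 CPM with mrps-5 and 22387, 23417 and 19168 CPM with cbp-1 added. The intermediate class summed to 2519, 2615 and 2616 CPM against 2061, 2175 and 1695 CPM, with the third mixture library the lowest in both. Of the 142 members 10 were higher and 75 lower, where 42.8% of all genes were called, 19.4% higher and 23.4% lower, and the members' median was -0.36. The abundant class had 1 higher and 24 lower (median -0.71), where 43.1% of all genes of at least 200 CPM were lower. The intermediate class had 4 and 31 (median -0.29), against 25.3% and 26.1% of all genes at this level, and the scarce class 5 and 20 (median -0.25), against 14.8% and 18.8%. The 10 higher became 5 without the first mrps-5 library and 6 without the second mixture library. Here too the 6 vitellogenins fell, to 31125 to 32646 CPM from 65101 to 68102 CPM, with 11 of 42 sperm genes, and their part was not tested.

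In this arm col-149 had 45, 46.2 and 46.8 CPM without and 96.2, 103 and 89.7 CPM with cbp-1, a log2 change of 1.07 ± 0.08 (adjusted p = 3.61e-11). Among members with a mean of at least 5 CPM the other rises were smaller. They were 0.63 ± 0.11 in col-90, 0.60 ± 0.10 in col-166, 0.24 ± 0.09 in col-170 and 0.23 ± 0.09 in col-111. Below that level, col-158 rose by 1.91. col-135 fell from 22.5, 22.2 and 24.3 CPM to 5.95, 6.52 and 6.14 CPM, a change of -1.89 ± 0.13. Further large falls were in col-110 (-1.32 ± 0.10), col-159 (-1.23 ± 0.16), col-62 (-1.20 ± 0.07) and col-92 (-1.19 ± 0.07). col-8, which had 1691, 1672 and 1662 CPM with mrps-5 and 1769, 1836 and 1738 CPM with cbp-1 added, was the abundant member that rose in both mixtures, by 0.24 beside cco-1 and 0.09 beside mrps-5. The call beside mrps-5 was lost when any mrps-5 library or the first or second mixture library was left out.

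The 3 pairs with and without cbp-1 have no library in common. Of the 54 members that fell with cbp-1 alone, 49 (90.7%) also fell beside cco-1, making up 83.1% of the 59 there, and 50 (92.6%) fell beside mrps-5, making up 66.7% of the 75 there. Of the 57 that rose with cbp-1 alone, 27 (47.4%) also rose beside cco-1, making up 87.1% of the 31 there, and 9 (15.8%) rose beside mrps-5, making up 90% of the 10 there. The overlap over all genes was not computed. Another 10 of the 57 fell beside mrps-5. In all 3 pairs 9 members rose, among them col-90, col-111, col-149, col-166 and col-170, and 47 fell. col-104, chosen after its values were seen, rose alone by 0.45 and fell in both mixtures, with log2 changes of -0.28 and -0.42.

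**Figure D3:**
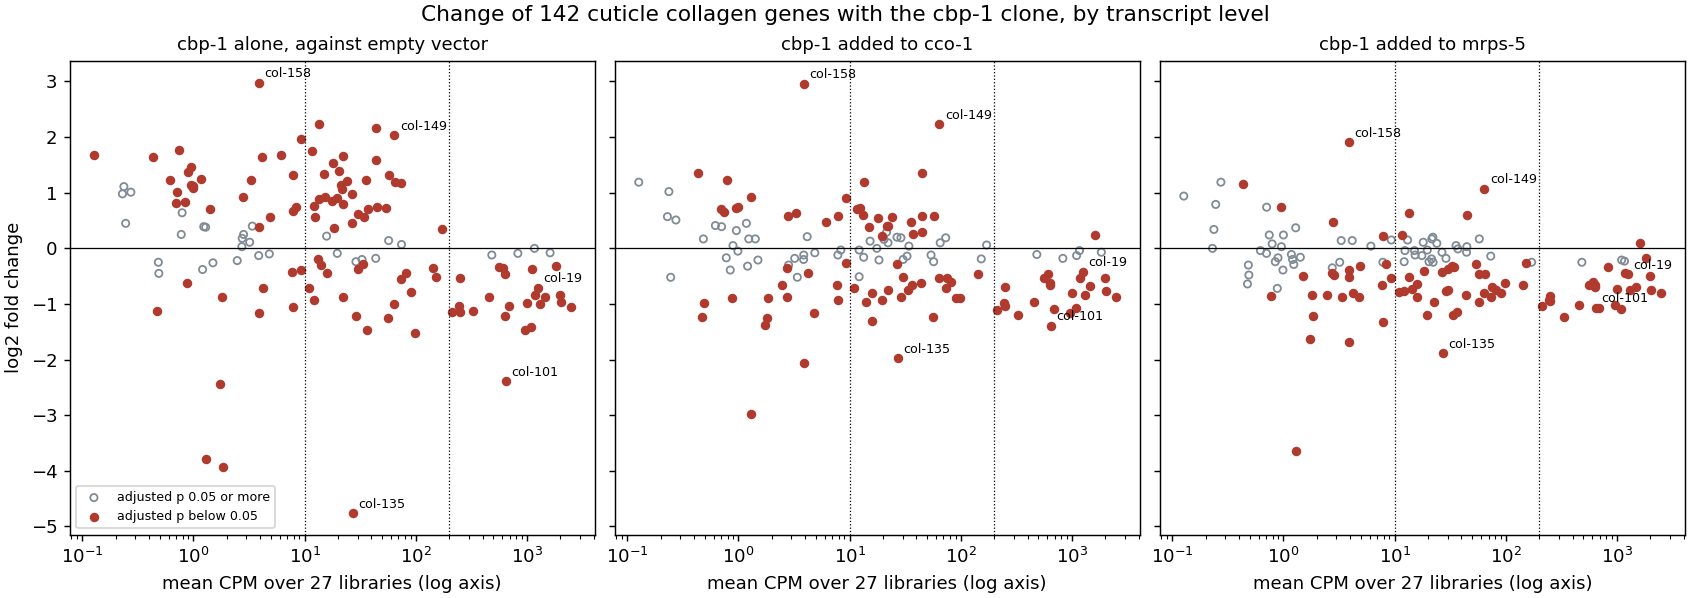
Log2 fold change of 142 cuticle collagen genes with the cbp-1 clone against their mean CPM over 27 libraries (log axis), for cbp-1 alone, added to cco-1 and added to mrps-5. Filled points passed an adjusted p of 0.05 in edgeR and dotted lines mark 10 and 200 CPM. Abundant genes lie below 0 in each panel except col-8 in the mixtures and col-42 at 0.00 with cbp-1 alone, while intermediate and scarce genes spread to both sides and sit lower in the mixtures.

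The interaction terms tested whether the change with cbp-1 differed beside a mitochondrial clone. Beside cco-1 the change was more positive than with cbp-1 alone for 17 members and more negative for 55, where 24.9% of all genes were called and 15.2% were more negative. The 17 became 10 or 11 without the third empty vector library, the first or second cbp-1 library, the first or the third cco-1 library or the first library of the mixture. Beside mrps-5 it was more positive for 16 and more negative for 62, where 23.6% of all genes were called and 15.5% were more negative. By class, the intermediate genes had 7 more positive and 36 more negative terms beside cco-1 (median -0.62), against 13.1% and 13.5% of all genes at this level. Beside mrps-5 they had 4 and 39 (median -0.87), against 10.7% and 15.3%. The scarce genes had 2 and 19 beside cco-1 (median -0.46), against 6.5% and 17.6% of all genes below 10 CPM. In the mrps-5 arm the scarce genes had 1 and 22 (median -0.65), against 5.29% and 16.4%. The abundant genes had 8 and 0 beside cco-1 (median 0.18), against 11.7% and 7.77% of all genes of at least 200 CPM, and 11 and 1 beside mrps-5 (median 0.16), against 14.1% and 9.42%. The 8 became 4 or 5 without the second or the third empty vector library, the first or second cbp-1 library, any cco-1 library, or the first or the third library of the cco-1 mixture. The 11 became 6 without the second cbp-1 library or the second library of the mrps-5 mixture, and 7 without the first library of that mixture. The cbp-1 clone made up 25% of the mixtures and an unstated share of the food in the group without a mitochondrial clone. The empty vector and cbp-1 libraries also lie in a different library set from all libraries with a mitochondrial clone. Clone share, library set and an effect of the mitochondrial clone therefore cannot be told apart in these terms.

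Among single genes, col-113 had 6.51, 4.4 and 5.18 CPM with the empty vector and 18.6, 23.7 and 21.5 CPM with cbp-1, but 7.64, 7.99 and 8.04 CPM with mrps-5 and 8.54, 8.86 and 8.9 CPM with cbp-1 added. The difference in log2 change was -1.82 ± 0.15 (adjusted p = 7.10e-12), and beside cco-1 it was -1.07 ± 0.15. col-3 had terms of -1.20 ± 0.18 beside cco-1 and -1.63 ± 0.19 beside mrps-5, col-145 -1.23 ± 0.22 and -1.63 ± 0.23, and col-180 -1.09 ± 0.20 and -1.65 ± 0.21. Beside cco-1 the term of col-144 was -1.26 ± 0.14, and beside mrps-5 that of col-169 was -1.65 ± 0.18. Each of these genes rose with cbp-1 alone. In the other direction, col-135 fell less deeply in the mixtures, with terms of 2.79 ± 0.22 and 2.87 ± 0.23, as did col-101, with 1.00 ± 0.06 and 1.32 ± 0.06, and col-95, with 0.62 ± 0.17 and 0.89 ± 0.17. Positive terms of 0.81 ± 0.12 in col-94 and 0.79 ± 0.09 in col-76 beside cco-1, and of 0.52 ± 0.13 in col-143 and 0.44 ± 0.10 in col-2 beside mrps-5, complete the list. It holds the largest terms among members with a mean of at least 5 CPM.

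At the same 25% share, the change with cbp-1 differed between the mrps-5 and cco-1 arms for 15 members, 1 more positive and 14 more negative beside mrps-5, where 5.49% of all genes were called and 3.58% were more negative. The 14 became 8 without the third cco-1 library and 9 without the first cco-1, second mrps-5, second cco-1 mixture or the third mrps-5 mixture library. The term was -1.17 ± 0.11 (adjusted p = 9.92e-08) for col-149, whose neighbour col-150 rose by 0.72 beside cco-1 and was not called beside mrps-5 (-0.04), with a term of -0.76 ± 0.10. Further negative terms were -0.76 ± 0.14 in col-166, -0.75 ± 0.15 in col-113 and -0.65 ± 0.18 in col-169. The positive term was 0.32 ± 0.06 in col-101.

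Adding the clone labelled atfs-1 to a mitochondrial clone gave a different picture, with small falls that were called most often among intermediate collagens. The 58 intermediate genes summed to 2320, 2408 and 2461 CPM with cco-1 and 1939, 1964 and 2027 CPM with atfs-1 added, and to 2519, 2615 and 2616 CPM with mrps-5 and 2059, 2210 and 1867 CPM with atfs-1 added. The groups did not overlap in either arm. Beside cco-1, 4 of the 142 members were higher and 56 lower, where 20.4% of all genes were called, 8.97% higher and 11.5% lower, and the members' median was -0.30. Beside mrps-5, 2 were higher and 61 lower, where 16.8% of all genes were called, 6.85% higher and 9.98% lower, with a median of -0.34.

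By class, 37 of 58 intermediate members were lower beside cco-1 (median -0.40) and 40 beside mrps-5 (median -0.46), against 13.6% and 11.4% of all genes at this level. Of the 28 abundant members 6 were lower in each arm, with medians of -0.10 and -0.11, against 8.06% and 6.99% of all genes of at least 200 CPM. Beside mrps-5 the 6 became 3 without the third mixture library. Of the 56 scarce members 3 were higher and 13 lower beside cco-1 (median -0.29), against 5.94% and 10.1% of all genes below 10 CPM. In the mrps-5 arm 1 was higher and 15 were lower (median -0.25), against 3.65% and 9.19%. The arms share no library, and 53 members fell in both, which is 94.6% of the 56 and 86.9% of the 61. As for cbp-1, the overlap over all genes was not computed. Leaving out the third library of the mrps-5 and atfs-1 mixture took the count called beside mrps-5 from 63 to 40.

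Among members with a mean of at least 5 CPM, the largest falls beside cco-1 were in col-120 (-0.62 ± 0.12), col-49 (-0.59 ± 0.11), col-150 (-0.59 ± 0.09), col-161 (-0.56 ± 0.10) and col-104 (-0.56 ± 0.10). Beside mrps-5 they were in col-150 (-0.85 ± 0.08), col-167 (-0.79 ± 0.16), col-149 (-0.78 ± 0.08), col-120 (-0.68 ± 0.12) and col-117 (-0.68 ± 0.13). col-150 had 9.95, 11.1 and 10.9 CPM with cco-1 and 6.75, 7.19 and 7.19 CPM with atfs-1 added, and 14.9, 17.3 and 14.1 CPM with mrps-5 and 8.23, 9.07 and 8.32 CPM with atfs-1 added, so that the groups were apart in both arms. col-135 rose instead, from 26.6, 31 and 26.3 CPM to 39.4, 35.9 and 39 CPM beside cco-1 (0.45 ± 0.10; adjusted p = 0.00177) and from 22.5, 22.2 and 24.3 CPM to 30.9, 26.9 and 32.1 CPM beside mrps-5 (0.38 ± 0.10; adjusted p = 0.0137). The sperm genes moved with this result, since 22 and 23 of 42 fell in the 2 arms and none rose, where 11.5% and 9.98% of all genes were lower. Of the 13 oocyte and eggshell genes 0 were lower. The part of the sperm genes in the collagen result was not tested.

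**Figure D4:**
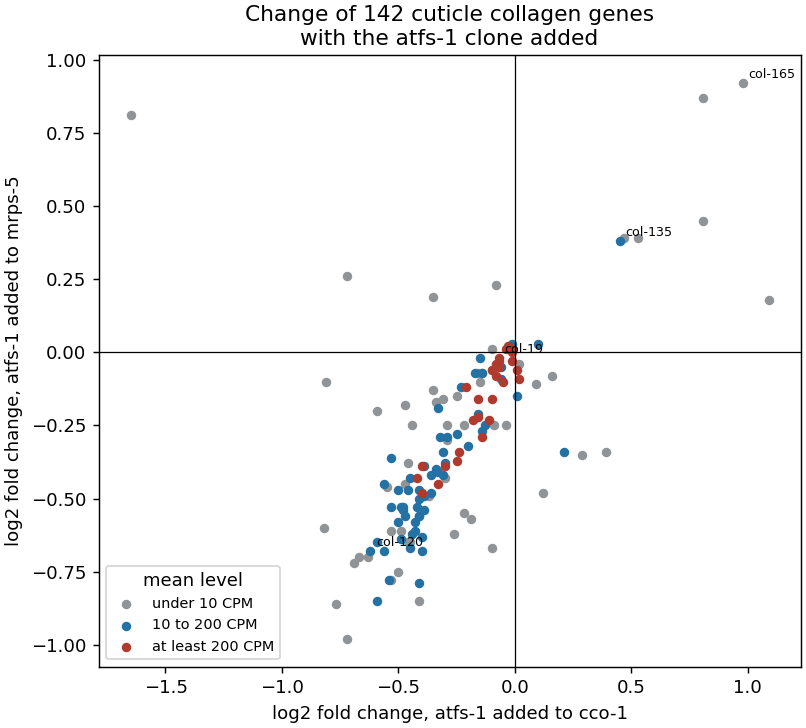
Log2 fold change of 142 cuticle collagen genes with the clone labelled atfs-1 added to cco-1 (horizontal axis) and to mrps-5 (vertical axis), coloured by mean level. Intermediate genes gather in the lower left, at medians of -0.40 and -0.46, abundant genes lie close to 0, and col-135 and the scarce col-165 lie in the upper right. Scarce genes spread more widely, at medians of -0.29 and -0.25.

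mrps-5 and cco-1 could be compared within a library set, and abundant collagens were higher with mrps-5. Of the 142 members 25 were higher and 3 lower, where 11.8% of all genes were called, 6.74% higher and 5.02% lower. All 28 abundant members had a log2 difference above 0, with a median of 0.31, and 16 were called higher, where 10.7% of all genes of at least 200 CPM were. The 16 became 10 without the first cco-1 library. col-181 had 3286, 3262 and 3201 CPM with mrps-5 and 2433, 2588 and 2534 CPM with cco-1, a log2 difference of 0.37 ± 0.04 (adjusted p = 2.63e-08). col-101 had 955, 960 and 958 CPM against 603, 594 and 600 CPM, a difference of 0.68 ± 0.04 (adjusted p = 8.57e-16). Among members with a mean of at least 5 CPM the widest gap was in col-149, at 45, 46.2 and 46.8 CPM against 26.7, 26.7 and 24.6 CPM (0.82 ± 0.08). It was followed by col-76 (0.72 ± 0.07), with col-95 (0.60 ± 0.12) and col-150 (0.54 ± 0.08) after col-101. Differences of the scarce members ran from -0.96 to 1.24. col-144 was lower (-0.41 ± 0.11). The 6 vitellogenins were all higher with mrps-5, summing to 65101 to 68102 CPM against 28113 to 30921 CPM, and their part in the collagen difference was not tested.

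The comparisons with the empty vector crossed the library sets, and many calls were lost with a term for the set in the fit. The group labelled atfs-1 is the only one with libraries of both sets, so that term rests on its first library, from which the sets were also read. Genes such as col-49 lost their call at a change of similar size, so a lost call does not show that a change was absent. With cco-1, 38 members were higher and 46 lower, where 45.3% of all genes were called, and 27 of the 28 abundant genes were lower (median -0.51), against 35.7% of all genes of at least 200 CPM. Of the intermediate members 20 were higher and 16 lower, against 29.7% and 30.2% of all genes at this level, and of the scarce ones 18 and 3, against 16% and 14%. With the set term 23 were higher and 10 lower, where 16.4% of all genes were called, and 5 abundant genes were lower (median -0.16). Of the 5 largest falls, those in col-76 (-1.20 ± 0.07) and col-135 (-0.85 ± 0.10) kept their call with the set term, at -1.15 and -1.31. Those in col-66 (-1.19 ± 0.23), col-96 (-1.07 ± 0.18) and col-88 (-0.82 ± 0.16) lost theirs, at 0.10, -0.11 and 0.00. col-66 shows the pattern: it had 22.7, 23.2 and 23.7 CPM with the empty vector, 26.3, 10.1 and 11.4 CPM in the libraries labelled atfs-1 and 9.71, 9.97 and 10.8 CPM with cco-1, so that the first atfs-1 library lay with the empty vector and the others with cco-1. Of the largest rises among members with a mean of at least 5 CPM, col-120 (0.78 ± 0.12), col-63 (0.72 ± 0.09), col-60 (0.72 ± 0.11) and col-155 (0.65 ± 0.07) kept their call with the set term. That of col-3 (0.85 ± 0.14), at 0.59, did not.

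With mrps-5, 31 members were higher and 23 lower, where 37.9% of all genes were called. The set term left 16 and 2, where 9.75% of all genes were called. Of the abundant members 2 were higher and 13 lower, against 37.1% and 30% of all genes of at least 200 CPM. The 13 became 4 without the third empty vector library and 8 without the first or second mrps-5 library, and the 23 lower of all members became 12 without the third empty vector library. Of the intermediate members 18 were higher and 9 lower, against 26.8% and 26%, and of the scarce ones 11 and 1, against 10.2% and 11.7%. The rises of col-155 (0.78 ± 0.07), col-63 (0.70 ± 0.09) and col-62 (0.66 ± 0.07) and the fall of col-135 (-1.13 ± 0.10) kept their call with the set term. col-3 (0.71 ± 0.15) and col-90 (0.59 ± 0.13) were at 0.45 and 0.49 with the set term, without a call. The falls of col-96 (-0.76 ± 0.18), col-88 (-0.67 ± 0.16) and col-40 (-0.56 ± 0.16) turned to 0.20, 0.15 and 0.18, also without a call, and col-66, with -0.82 ± 0.22, was called at 0.47 in the other direction. The abundant class had a median of -0.16 without the set term and 0.11 with it. In the group labelled atfs-1, 5 members were higher and 3 lower, where 10.8% of all genes were called, 5.54% higher and 5.24% lower. With the set term the fall of col-2 alone kept its call, at -0.33. The abundant members had 2 higher and 0 lower, where 15.1% and 9.61% of all genes of at least 200 CPM were called. The intermediate members had 2 and 2, against 8.81% and 9.51%, and the scarce ones 1 and 1, against 1.67% and 1.17%. The calls included rises in col-63 (0.32 ± 0.09), col-155 (0.30 ± 0.08), col-181 (0.15 ± 0.04) and col-101 (0.13 ± 0.04) and falls in col-2 (-0.54 ± 0.07) and col-88 (-0.52 ± 0.16). The count was 52, with 8 higher and 44 lower, when the first atfs-1 library was left out, where 29.4% of all genes were called. It was 1 without either of the others and 2 or 3 without an empty vector library.

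The members known as stage markers moved in both directions with cbp-1 alone, and a change in the mix of stages was not tested. Of 5 genes known for the adult cuticle, col-19 (-0.71 ± 0.05) and col-7 (-0.87 ± 0.27) fell with cbp-1 alone and col-38 (0.74 ± 0.07), col-49 (0.98 ± 0.11) and col-63 (0.56 ± 0.09) rose. col-19 had 1436, 1510 and 1516 CPM with the empty vector and 902, 887 and 936 CPM with cbp-1, and col-49 had 22.4, 18.1 and 21 CPM against 34.4, 46 and 42 CPM. Neither pair of groups overlapped. The larval genes split as well, with col-10 at 1.14 ± 0.12 and col-17 at -0.37 ± 0.08. Of the pair expressed at all molts col-13 rose (0.68 ± 0.11) and col-12 was not called (-0.18), and both dauer genes in the table fell, col-2 by -1.21 ± 0.07 and col-40 by -0.45 ± 0.16. The transmembrane collagen col-99 fell too, with -0.39 ± 0.10.

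In the cbp-1 mixtures col-19 fell beside cco-1, from 1361, 1368 and 1379 CPM to 1038, 1020 and 1007 CPM (-0.42 ± 0.05; adjusted p = 3.82e-10), and beside mrps-5, from 1418, 1427 and 1451 CPM to 1051, 1109 and 945 CPM (-0.47 ± 0.05; adjusted p = 3.04e-11). col-7, a scarce gene, fell in both (-1.25 ± 0.19 and -0.83 ± 0.18). col-49 was not called in either (0.20 and -0.07), col-38 rose beside cco-1 (0.30 ± 0.07), and col-63 fell beside mrps-5 (-0.33 ± 0.09). The larval col-17 fell in both (-0.51 ± 0.08 and -0.74 ± 0.08) and col-10 was not called in either (0.29 and -0.19). col-12 fell in both (-0.62 ± 0.10 and -0.84 ± 0.10), as did both dauer genes.

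With the clone labelled atfs-1 added, larval and adult markers fell side by side in both arms. col-7, col-38, col-49 and col-63 fell by 0.34 to 0.67 on the log2 scale beside cco-1 and by 0.40 to 0.70 beside mrps-5, whereas col-19 was not called, at -0.07 and -0.02. col-63 had 38.9, 43.8 and 41.3 CPM with cco-1 and 27, 32.5 and 29 CPM with atfs-1 added, without overlap. col-10 (-0.42 ± 0.14 and -0.53 ± 0.14), col-17 (-0.29 ± 0.08 in each arm), col-12 (-0.39 ± 0.10 and -0.54 ± 0.10) and col-13 (-0.46 ± 0.13 and -0.38 ± 0.13) fell in both arms. The dauer genes col-2 and col-40 were not called. col-10, col-13, col-120 and col-144, which others have linked to worm lifespan, also all fell in both arms, and with cbp-1 alone col-120 fell (-0.44 ± 0.13) while the other 3 rose.

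In the crossed comparisons with the empty vector, col-7 was at 1.26 ± 0.20 with cco-1 and 1.47 ± 0.19 with mrps-5. col-38 (0.46 and 0.36) and col-49 (0.59 and 0.43) passed the test there as well, and both dauer genes were lower (col-2 -0.60 and -0.55, col-40 -0.73 and -0.56). With the set term col-38 (0.39 and 0.30) and col-49 (0.65 and 0.49) had changes of similar size without a call, and col-7 was at 0.29 and 0.50, also without one. col-63 kept its call in both comparisons, at 0.64 and 0.62, col-2 kept its fall with cco-1 at -0.27, and col-40 turned to 0.01 and 0.18 without a call.

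col-19 was also used as a reference for the other members. Across the 9 group means of log2 CPM, compared for 94 members with a mean of at least 5 CPM, the patterns most like it were those of col-124 (r = 0.99), col-179 (0.98), col-94 (0.96), col-181 (0.95) and col-135 (0.95). The least alike were col-90 (-0.94), col-166 (-0.92) and col-111 (-0.91). These coefficients describe 9 groups that share library sets and clones.

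**Figure D5:**
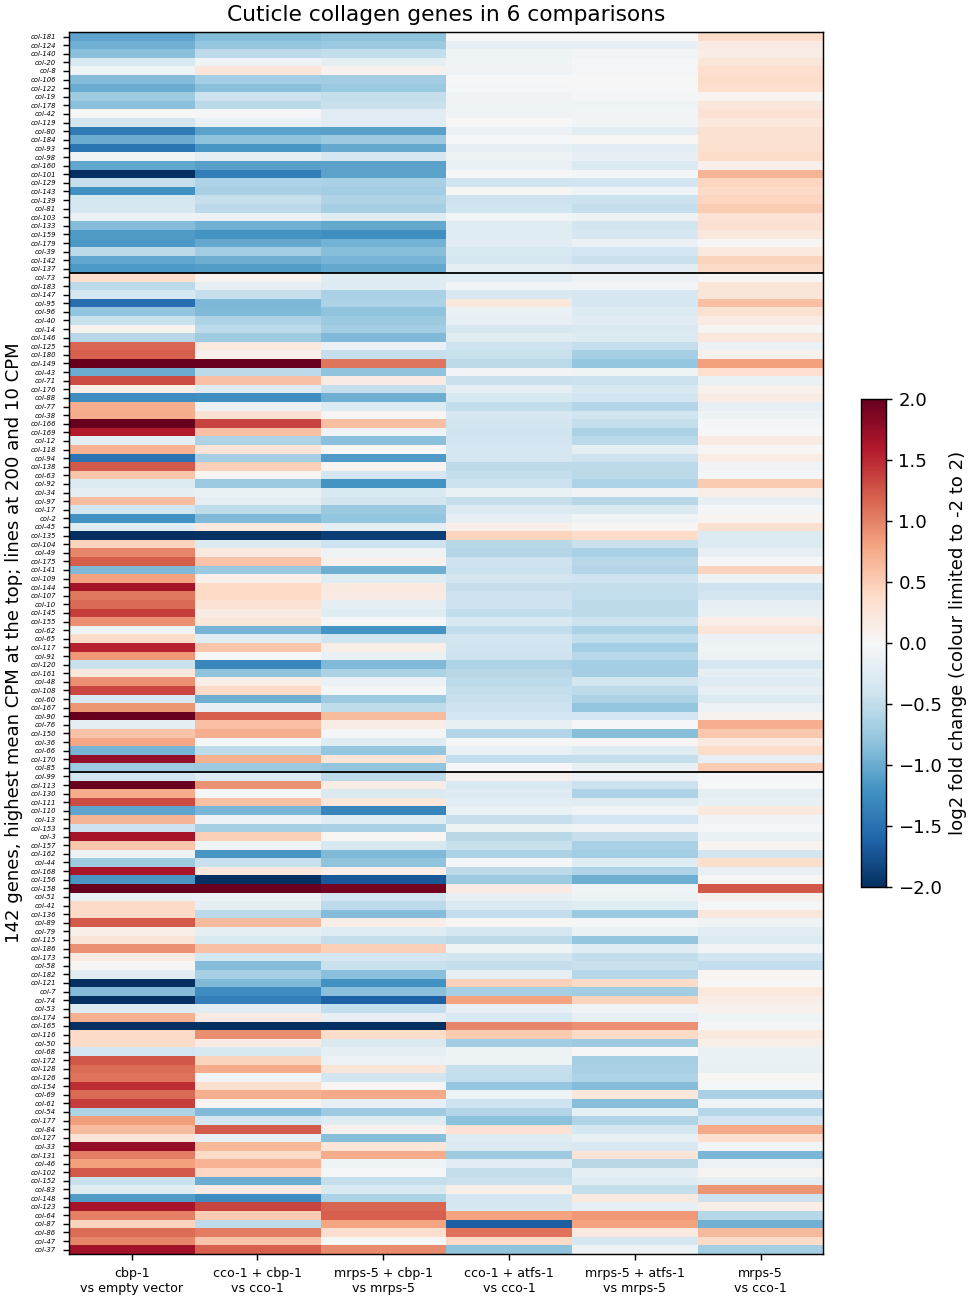
Log2 fold change of 142 cuticle collagen genes in 6 comparisons that lie within a library set, ordered by mean level with the highest at the top and lines at 200 and 10 CPM. Colour runs from -2 (blue) to 2 (red), and larger changes are shown at that limit. Abundant genes are blue with cbp-1 and pale red for mrps-5 against cco-1, and intermediate genes hold both colours with cbp-1 alone (32 called higher and 19 lower) and are mainly blue with atfs-1 added, at medians of -0.40 and -0.46.

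Cuticle collagens with other names (dpy, sqt, rol, bli and lon genes, named for the body shape or blisters of their mutants) also moved in both directions with cbp-1 alone. Of 20 tested 11 were higher and 4 lower, where 30.2% and 28.5% of all genes were. dpy-14 (-2.19 ± 0.10) and dpy-17 (-2.04 ± 0.09) fell, and sqt-2 (1.04 ± 0.07) and rol-6 (1.01 ± 0.08) rose. Beside cco-1 7 were higher and 3 lower, where 21.9% and 25.3% of all genes were, and beside mrps-5 1 and 9, where 19.4% and 23.4% were. The log2 changes there were, for dpy-17, -0.89 ± 0.08 and -1.01 ± 0.09, and for dpy-14 -0.71 ± 0.08 and -0.82 ± 0.08. With atfs-1 added 2 were higher and 7 lower beside cco-1, where 8.97% and 11.5% of all genes were, and 2 and 2 beside mrps-5, where 6.85% and 9.98% were. There dpy-17 (0.46 ± 0.07 and 0.23 ± 0.08) and dpy-14 (0.42 ± 0.07 and 0.24 ± 0.07) rose, and bli-6 (-0.51 ± 0.09 and -0.47 ± 0.10) and sqt-2 (-0.42 ± 0.08 and -0.26 ± 0.08) fell. The 6 annular furrow collagens among them had 3 higher and 2 lower with cbp-1 alone, with dpy-9 at 0.96 ± 0.10.

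Of 10 genes for enzymes and other proteins that mature collagen 5 were higher and 2 lower with cbp-1 alone, 7 and 1 beside cco-1, and 5 and 2 beside mrps-5, against the same shares of all genes. dpy-18, which encodes a subunit of the prolyl 4-hydroxylase that modifies collagen chains, rose by 2.13 ± 0.04, 1.65 ± 0.04 and 0.73 ± 0.04. mlt-7, a peroxidase needed for cuticle cross-linking, fell in all 3, with -1.66 ± 0.06, -1.61 ± 0.06 and -1.45 ± 0.06. With atfs-1 added 1 was higher and 1 lower beside cco-1, where 8.97% and 11.5% of all genes were. Beside mrps-5 0 were called, where 16.8% of all genes were. The basement membrane collagens emb-9, let-2 and cle-1, which are not part of the cuticle, had small falls with cbp-1 alone (-0.23 to -0.45), and 2 and 3 of the 3 fell in the mixtures. Of 14 molting genes 9 were higher and 1 lower with cbp-1 alone, 7 and 0 beside cco-1, and 3 and 3 beside mrps-5. The shares of all genes were 30.2% and 28.5%, 21.9% and 25.3%, and 19.4% and 23.4%. mlt-9 (0.80 ± 0.09) and ptr-4 (0.64 ± 0.07) were among those that rose with cbp-1 alone.

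Among 16 tested regulators of developmental timing and of hypodermal gene expression, 3 were higher and 9 lower with cbp-1 alone, 1 and 8 beside cco-1, and 1 and 7 beside mrps-5. The shares of all genes were 30.2% higher and 28.5% lower alone, 21.9% and 25.3% beside cco-1, and 19.4% and 23.4% beside mrps-5. hbl-1, a zinc finger gene that holds larvae at early fates, fell by 2.09 on the log2 scale alone, by 1.49 beside cco-1 and by 1.28 beside mrps-5. elt-3, a GATA factor of the hypodermis, had changes of -0.79 ± 0.06, -1.06 ± 0.06 and -0.89 ± 0.06, and lin-14, a heterochronic gene of the first larval stages, -0.62 ± 0.09, -0.66 ± 0.08 and -0.70 ± 0.09. With atfs-1 added to cco-1, hbl-1 (0.36 ± 0.06) and blmp-1 (0.33 ± 0.07) rose and lin-29, the factor that switches on adult collagens, fell (-0.32 ± 0.09). Beside mrps-5 hbl-1 (0.22 ± 0.07) and blmp-1 (0.19 ± 0.07) rose and 0 were lower. Of the 16, 2 were thus higher and 1 lower beside cco-1, where 8.97% and 11.5% of all genes were. In the mrps-5 arm the counts were 2 and 0, where the shares were 6.85% and 9.98%. So few calls are near the shares of all genes. lin-29 was at 0.64 ± 0.10 with cco-1 against the empty vector, a comparison that crosses the library sets.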

How the data were processed

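Poly(A) RNA of whole worms was sequenced on a BGISEQ-500, per the labels' protocols. The submitters' processing notes name STAR 2.6.0a, HTSeq 0.10.0 and the build WBcel235. The authors deposited raw gene counts without normalization, and the strand setting and the trimming are not given in the sources used here. Lines without a gene, which include reads aligned to several places, entered neither the library sizes nor the tests and held 8.71% to 17% of reads per library. Names, exon lengths and coordinates came from the Ensembl annotation of WBcel235.

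The test was edgeR 4.0.16's quasi-likelihood test (R 4.3.3), with filterByExpr at a minimum count of 10, TMM scaling, the robust option, all 27 libraries in the fit and a coefficient for each group, with Benjamini-Hochberg adjustment over 16435 genes within each of 12 comparisons. Errors of log2 changes are standard errors taken from the F statistic, and those of CPM are SDs of 3 libraries. The steps were tested on simulated data. Alternatives were scaling by RLE or by the upper quartile, DESeq2 1.42.0, no filter, only the groups compared, a replicate block, a library-set term and leaving out each library.

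Replicates differed by more than counting noise (chi-square per degree of freedom 1.45 to 29.9, median 2.23). The members, the gene lists and these tests were chosen with earlier results of these data known. Named members are those of the stage lists, up to 5 rises and 5 falls per comparison among called genes with a mean of at least 5 CPM, the 10 highest per kilobase with the empty vector, and the 5 most and 3 least like col-19. Of the other lists up to 4 genes per comparison were open to naming. col-6 and ram-4 are listed but were not analysed here.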

Additional observations from a re-analysis of the deposited data

Results flagged for a closer look

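The change of cuticle collagens with cbp-1 differed by arm. The interaction term was called for 72 of 142 members beside cco-1 and for 78 beside mrps-5, each set against cbp-1 without a mitochondrial clone. Over all genes it was called for 24.9% and 23.6%. The share of the cbp-1 clone differs or is unstated there, and the library set differs too. Neither can be told apart from the mitochondrial clone.

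At equal clone share, the change with cbp-1 differed between mrps-5 and cco-1 for 15 members of 142, where 5.49% of all genes were called. The named ones are col-101 with a difference of 0.32, col-149 with -1.17, col-150 and col-166 with -0.76 each, col-113 with -0.75 and col-169 with -0.65 on the log2 scale. The group levels show both sides of the difference: col-149 was higher with mrps-5 than with cco-1 before cbp-1 was added and lower after it, at 89.7 to 103 CPM against 117 to 127 CPM.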

How the results depend on the processing

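With a library-set term, which rests on the first atfs-1 library, 33 members were called for cco-1 in place of 84, 18 for mrps-5 in place of 54, and 1 for atfs-1 in place of 8. Over all genes 16.4%, 9.75% and 0.329% were called with that term, in place of 45.3%, 37.9% and 10.8%. For atfs-1 against the empty vector, no filter gave 48, DESeq2 15, and only the groups compared 0 by edgeR, with 15 at an unadjusted p under 0.05. Leaving out a library gave 1 to 52 for this comparison, with 52 without the first atfs-1 library (29.4% of all genes), 1 without either of its replicates and 2, 3 and 2 without each empty vector library. It gave 40 without the third library of the mrps-5 and atfs-1 mixture and at most 67 for atfs-1 added to mrps-5 (63 called), and 9 without the third cco-1 library and at most 17 for the difference of cbp-1 between arms (15 called). Fitting only the groups compared gave 91 in place of 60 for atfs-1 added to cco-1, 63 in place of 28 for mrps-5 against cco-1 and 23 in place of 15 for the difference between arms. No filter gave 55 and 36 for the last 2. The cause of these shifts was not tested.

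Of 3273 values of named members under the alternatives, 3091 kept direction and side of the threshold, 116 lost their call, 54 gained it and 12 reversed. The 12 are all under the library-set term. For cco-1 they were col-10 (0.61), col-17 (0.21), col-19 (0.07), col-40 (0.01), col-66 (0.10) and col-88 (0.00), and for mrps-5 col-10 (0.45), col-17 (0.19), col-40 (0.18), col-66 (0.47), col-88 (0.15) and col-96 (0.20). Replicate numbers do not pair the libraries, since deviations of same-numbered libraries correlated by -0.0759 to 0.0907 in 108 pairs. With a replicate block 111, 84, 54 and 7 members were called for cbp-1, cco-1, mrps-5 and atfs-1 against the empty vector, 91 and 82 for cbp-1 and 56 and 63 for atfs-1 added to cco-1 and mrps-5, 28 for mrps-5 against cco-1, 71 and 77 for the interaction terms and 16 for the difference between arms. Members under about 1 CPM rest on few reads and their changes are the least certain.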
